A study of Mus musculus with 11 samples.

Results

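The genes examined were those of the interferon receptor chains Ifnar1, Ifnar2, Ifngr1, Ifngr2 and Il10rb, of the receptor-bound kinases Jak1 and Tyk2, and of the transcription factor subunits Stat2 and Irf9. They were found by Ensembl identifier among 55487 genes of the deposited table. All 9 were present, and all 9 were among the 14521 genes abundant enough to be tested. Each was counted with at least 145 reads in every one of 11 bulk RNA-seq libraries of acute myeloid leukaemia (AML) from mice. Every leukaemia bore both Flt3-ITD, in which a stretch of the cytokine receptor gene Flt3 is duplicated and the receptor is always active, and NHD13, a fusion transgene of Nup98 and Hoxd13. By the labels, 6 libraries were Ifnar1 +/-, with 1 functional copy of the type I interferon receptor gene Ifnar1, and 5 were Ifnar1 -/-, with none. These genotypes are written +/- and -/- below. No library with both Ifnar1 copies was analysed here, so the controls also carried a disrupted allele. The promoter behind the transgene, the age of the mice and whether each library came from a separate mouse are not given here by any label, so each p-value refers to the scatter among these libraries, which may in part be technical.

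Type I interferons bind a receptor made of IFNAR1 and IFNAR2, whose intracellular parts hold the kinases TYK2 and JAK1. These kinases phosphorylate STAT proteins, among them STAT2, which acts with IRF9 in a complex called ISGF3 that binds interferon-stimulated response elements in DNA. Interferon gamma uses IFNGR1 and IFNGR2 with JAK1 and JAK2 and acts mainly through gamma-activated sites in DNA, while IL10RB is a shared chain of the receptors for IL-10, IL-22 and the type III interferons. In blood-forming tissue, type I interferon is known to push resting stem cells into division, and mice without Ifnar1 respond poorly to type I interferons.

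Library totals ran from 25583642 to 38728143 estimated counts. All 8 haematopoietic markers (among them Ptprc and Kit) were counted in every library, with a summed level of 504 to 1647 CPM (reads of a gene for every 1000000 reads of the library, after TMM scaling). The libraries fell into sets by Ebf1, which encodes a transcription factor of early B cells. It had 531 to 745 CPM in +/- libraries 3, 4 and 5 and -/- libraries 3 and 5, and at most 8.72 CPM in the other 6 libraries, and these sets of 5 and 6 are called Ebf1-high and Ebf1-low below. They were defined from measured values, are no groups of the study and were compared without a test. The 8 B-lineage markers (Cd79a and Igll1 the most abundant) include Ebf1 itself. The other 7 summed to 5079 to 8312 CPM in Ebf1-high and 10.2 to 112 CPM in Ebf1-low libraries, so their sum differed between the sets in every statement on Ebf1 level. Erythroid markers (Hbb-bs, Hba-a1) summed to 614 to 2115 and 1947 to 87156 CPM, monocyte and macrophage markers (Ly6c2, Itgam) to 27.7 to 207 and 87.5 to 3923 CPM, neutrophil and eosinophil markers (Prg2, Ngp) to 192 to 3742 and 2.21 to 75575 CPM, T and NK cell markers (Gzmb, Nkg7) to 131 to 560 and 258 to 6376 CPM, and endothelial and stromal markers (Pecam1, Cxcl12) to 67.9 to 189 and 11.1 to 97.3 CPM. No marker was at 0 in all libraries, but Cd3e, Cd8a, Ncr1, Cdh5, Kdr, Lepr and Pdgfra stayed under 1 CPM. The last 2 sums follow their most abundant genes. Gzmb, Nkg7 and Cd3g reached higher in Ebf1-low libraries. Lck (95.4 to 452 against 0.774 to 69.4 CPM) and Cd4 (1.64 to 9.31 against 0 to 0.747 CPM) were higher in Ebf1-high libraries. Pecam1 reached higher in Ebf1-high libraries, but Cxcl12, Col1a1 and Col1a2 in Ebf1-low libraries. These 2 sums are therefore no measure of cell content. +/- library 6 held the highest erythroid sum and -/- library 2 the highest neutrophil and eosinophil sum. The part of these cell types in the differences below was not tested. In bulk samples, fewer cells of a type and less RNA per cell cannot be told apart.

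Scaled to exon length, Ifngr1 was the most abundant of the 9 transcripts. Its mean level was 169 ± 92.2 CPM per kb of exon (SD, n = 11), and its lowest library (70.8) lay above the highest library of the next gene, Jak1 (57.7). Jak1 followed with 35.4 ± 14.3 CPM per kb and exceeded Ifnar2 in 11 of 11 libraries. The other receptor chains came next, with 20.8 ± 8.76 CPM per kb for Ifnar2, 16.4 ± 4.69 for Il10rb, 15.5 ± 5.10 for Ifngr2 and 10.9 ± 4.62 for Ifnar1. The mean differences between these neighbours (4.40 ± 9.36, 0.849 ± 8.41 and 4.62 ± 5.16 CPM per kb) were smaller than their own SD. Tyk2 (7.02 ± 2.73), Irf9 (5.35 ± 2.78) and Stat2 (4.57 ± 1.55) were the lowest. Their mean differences from their neighbours were also smaller than the SD of those differences. Ifngr2 exceeded Ifnar1 in 9 of 11 libraries and Ifnar1 exceeded Tyk2 in 8. From Ifnar2 down, each other gene exceeded the next in 6. The order was not tested. Irf9 varied most between libraries, with an SD of 1.05 in log2 CPM, and Il10rb least, with 0.44. The median SD of the 9 genes was 0.54, against 0.67 over all tested genes.

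Ifnar1, Ifnar2, Il10rb and Ifngr2 lie together on mouse chromosome 16, all on the plus strand, within 192.8 kb (GRCm38, GENCODE M21). The order is Ifnar2 (91372783 to 91405589), Il10rb (91406164 to 91425834), Ifnar1 (91485238 to 91507441) and Ifngr2 (91547072 to 91565623). Ifngr1 lies on chromosome 10, from 19591949 to 19610229, and Stat2 on the same chromosome, from 128270559 to 128292849. Jak1 lies on chromosome 4 (101152367 to 101265282, minus strand), Tyk2 on chromosome 9 (21104068 to 21131243, minus strand) and Irf9 on chromosome 14 (55603571 to 55610030). A read-through gene model, Gm21970, shares 315 exonic bases with Ifnar2 and 569 with Il10rb on the same strand and had 0 counts in every library, so how reads in the shared exons were assigned is not known. Tyk2 shares 554 exonic bases with 1700084C06Rik on the opposite strand, which had at most 42 counts in a library, and Irf9 shares 123 bases with Rnf31 on its own strand, which had 439 to 912 counts. Whether the counting used strand is not given, so single values of these genes are uncertain to that extent.

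Promoter windows (250 bases before to 50 after the transcription start, RefSeq on GRCm38.p6) were at hand for 8 of the 9 genes, in 9 windows. Both strands were searched for the interferon response element core GAAANNGAA and for the palindromic gamma-activated core TTCNNNGAA, and no match overlaps another. The windows of Ifnar1 and Ifnar2 are shown because the mean levels of these subunits of 1 receptor stood on opposite sides between the Ebf1 sets, and that of Stat2 because it held the response element core. Matches are in capitals.
Ifnar1, chr16:91484965-91485264, plus strand: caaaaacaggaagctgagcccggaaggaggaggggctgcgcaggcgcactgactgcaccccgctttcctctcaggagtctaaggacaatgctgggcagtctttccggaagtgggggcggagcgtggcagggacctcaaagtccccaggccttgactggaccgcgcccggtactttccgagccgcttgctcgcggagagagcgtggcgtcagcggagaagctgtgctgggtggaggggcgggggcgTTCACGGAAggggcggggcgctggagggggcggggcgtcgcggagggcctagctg
Ifnar2, chr16:91372533-91372832, plus strand: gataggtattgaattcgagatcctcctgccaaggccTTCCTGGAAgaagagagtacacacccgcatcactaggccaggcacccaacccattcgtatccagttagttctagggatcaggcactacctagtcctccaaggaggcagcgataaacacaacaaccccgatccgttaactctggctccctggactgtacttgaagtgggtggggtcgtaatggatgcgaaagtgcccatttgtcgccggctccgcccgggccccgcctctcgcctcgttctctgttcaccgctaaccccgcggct
Stat2, chr10:128270248-128270547, plus strand: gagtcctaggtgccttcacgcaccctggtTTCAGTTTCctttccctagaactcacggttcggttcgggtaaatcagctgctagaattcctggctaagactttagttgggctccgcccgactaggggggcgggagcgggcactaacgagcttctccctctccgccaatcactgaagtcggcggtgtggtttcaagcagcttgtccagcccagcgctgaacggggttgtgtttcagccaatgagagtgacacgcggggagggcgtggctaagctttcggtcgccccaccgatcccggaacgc
The Stat2 match to GAAANNGAA is on the minus strand and lies 221 bases before the start. It was the only such match in the 9 windows, and 8.56% of 32851 promoter windows held one. The gamma-activated core was found 5 bases before the start of Ifnar1 and 214 bases before that of Ifnar2, and 8.30% of all windows held it. A match is a description of letters, not of a bound site.

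The first comparison is that of Ifnar1 -/- with Ifnar1 +/- AML, starting with the disrupted gene. Ifnar1 transcript had 39.3, 50.03, 84.5, 68.5, 72.3 and 51.4 CPM in +/- libraries 1 to 6. It had 36.3, 54.2, 133, 47.3 and 74.8 CPM in -/- libraries 1 to 5. Both genotypes spanned low and high values and overlapped, and in both the highest values were those of the Ebf1-high libraries. The log2 fold change was 0.18 (SE 0.34). Reads were summed over all exons, so a transcript with a deleted or interrupted stretch would still be counted, and this level checks neither the labels nor the allele.

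Ifnar2, which encodes the chain that binds interferon most tightly, had 66.6, 80.4, 43.5, 49.0, 48.98 and 83.5 CPM in the +/- and 55.7, 145.8, 60.5, 78.7 and 47.4 CPM in the -/- libraries. Library 2 of the -/- genotype was highest, and the remaining values overlapped. The log2 fold change was 0.32 (SE 0.31), and -0.03 without that library. Il10rb had 97.9, 51.3, 36.4, 62.7, 70.7 and 34.9 CPM in +/- and 66.6, 72.6, 53.99, 72.4 and 65.7 CPM in -/- libraries. The -/- values lay inside the range of the +/- values (log2 fold change 0.17, SE 0.27).

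The interferon gamma receptor genes showed the same overlap. Ifngr1, the gene of the chain that binds interferon gamma, had 469.9, 804, 279, 202, 216 and 369.9 CPM in +/- libraries 1 to 6 and 840.2, 626, 220.2, 878 and 399 CPM in -/- libraries 1 to 5. The lowest values in both genotypes were those of Ebf1-high libraries. The log2 fold change was 0.60 (SE 0.44). Ifngr2, the gene of the signalling chain, had 60.2 ± 14.6 CPM (SD, n = 6) in +/- and 56.3 ± 25.4 CPM (SD, n = 5) in -/- AML, with a log2 fold change of -0.10 (SE 0.30).

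Of the kinases, Tyk2 had the smallest p of the 9 genes. It had 53.5, 46.8, 43.4, 23.9, 36.5 and 28.3 CPM in +/- and 74.0, 61.6, 34.6, 84.0 and 43.1 CPM in -/- libraries. The 3 Ebf1-low -/- libraries were the highest of all 11, and the 2 Ebf1-high ones lay within the +/- range. Its log2 fold change was 0.62 (SE 0.28, unadjusted p = 0.0519, edgeR adjusted p = 0.9998). Jak1 had 388, 338, 165, 142, 158 and 254 CPM in +/- and 252, 359, 170, 417 and 171 CPM in -/- libraries. Its values overlapped between genotypes, with a log2 fold change of 0.18 (SE 0.35).

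The genes of the ISGF3 subunits had lower means in -/- AML, within their spread. Irf9 had 49.4, 49.8, 34.9, 25.03, 18.6 and 27.3 CPM in +/- and 32.4, 7.69, 5.19, 42.5 and 24.3 CPM in -/- libraries. Only -/- libraries 2 and 3 lay below the +/- range. The lowest value rests on 145 counts, with a 95% exact Poisson interval of 4.38 to 6.11 CPM that covers counting error only. The log2 fold change was -0.61 (SE 0.52). Stat2 had 36.9, 23.4, 43.6, 23.7, 33.8 and 13.8 CPM in +/- and 25.4, 23.2, 13.2, 30.6 and 29.97 CPM in -/- libraries. The genotypes overlapped, with the lowest value of each, 13.8 and 13.2 CPM, close together (log2 fold change -0.26, SE 0.32).

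None of the 9 genes passed edgeR's quasi-likelihood test between genotypes (adjusted p = 0.9998 for each), and 0 of the 9 had an unadjusted p under 0.05 in that test. Over all 14521 tested genes 0% were called by the adjusted p, and 289 genes (1.99%) had an unadjusted p under 0.05. DESeq2 called 3 genes and limma voom 0, none of them among the 9. In none of the 9 did all libraries of a genotype lie on 1 side of the other, as was so for 0.124% of tested genes. The fitted log2 fold changes ran from -0.61 to 0.62, with a median of 0.18 against -0.01 over all tested genes, and 6 were above and 3 below 0. With a biological coefficient of variation of 0.782, these libraries limit the precision, and the p-values do not show that the genotypes are alike.

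**Figure D1:**
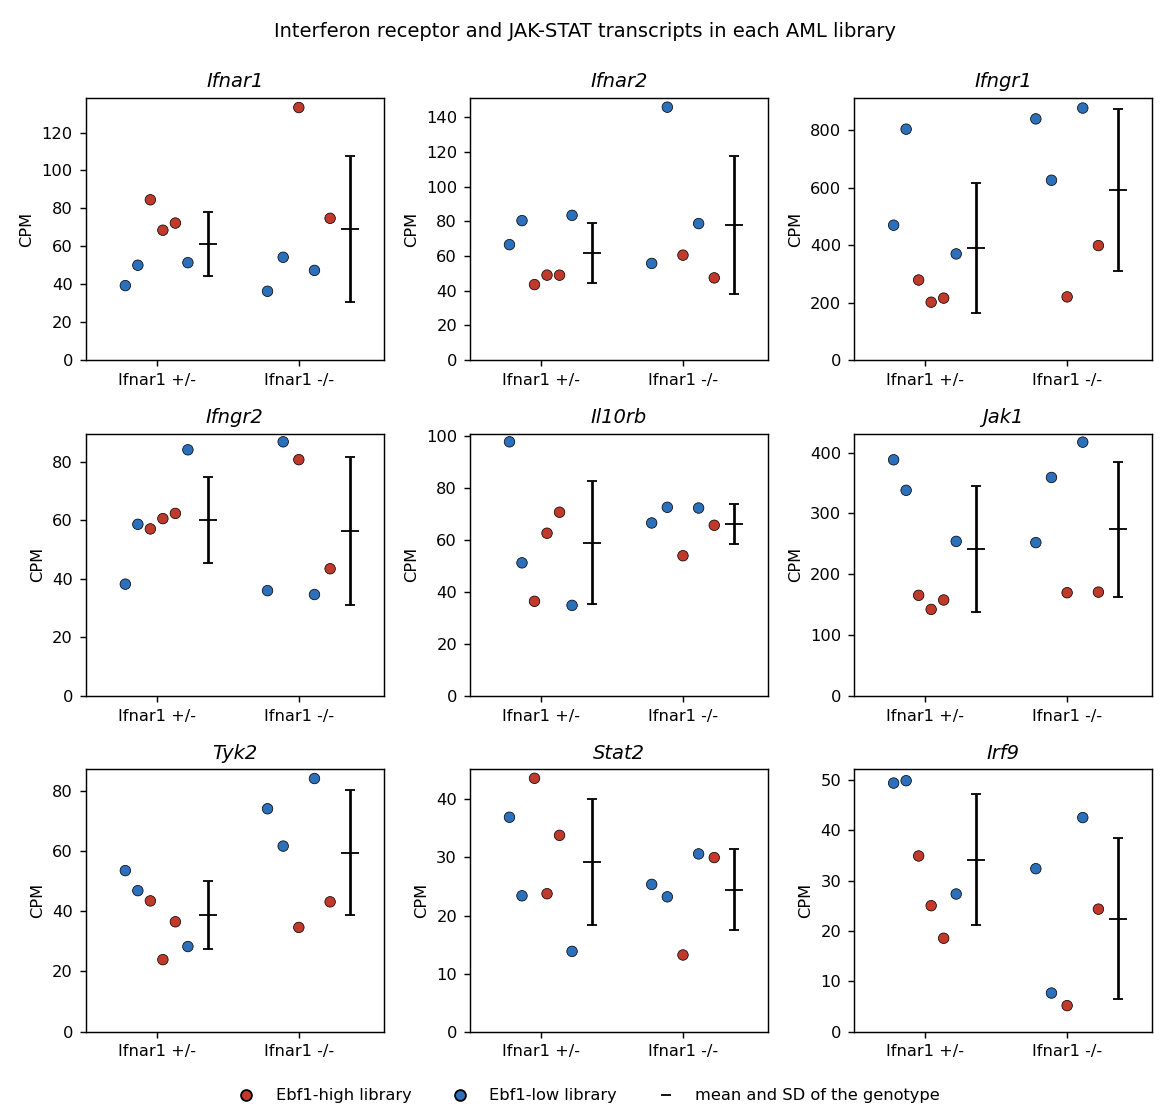
Level of each of the 9 transcripts in CPM (vertical axes from 0) in the 6 Ifnar1 +/- and 5 Ifnar1 -/- libraries, with points coloured by Ebf1 set and the mean and SD of each genotype at the right of its points. The genotypes overlap in all 9 panels, and in those of Ifnar1 and Jak1 the Ebf1-high points lie apart from the Ebf1-low points.

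Set against Ebf1, Ifnar1 and Jak1 went opposite ways. Ifnar1 had 68.5 to 133 CPM in the 5 Ebf1-high libraries and 36.3 to 54.2 CPM in the 6 Ebf1-low libraries, so every Ebf1-high value lay above every Ebf1-low value. The log2 ratio of the mean levels was 0.90. Jak1 had 142 to 171 CPM in Ebf1-high and 252 to 417 CPM in Ebf1-low libraries, with no overlap and a log2 ratio of -1.05. The 5 Ebf1-high values of Jak1 had an SD of 11.7 CPM. In that set both -/- libraries (170 and 171 CPM) lay just above the +/- libraries (142 to 165 CPM), and in the Ebf1-low set the genotypes were interleaved.

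These were 2 of the 9 genes, and 21.1% of all tested genes had sets that did not overlap, so the share among the 9 was near that of all genes. The other 7 overlapped. Ifngr1 had 202 to 399 CPM in Ebf1-high and 370 to 878 CPM in Ebf1-low libraries, a log2 ratio of -1.34, and +/- library 6 (369.9 CPM) and -/- library 5 (399 CPM) alone made the sets overlap. Ifnar2 had 43.5 to 60.5 and 55.7 to 145.8 CPM (log2 ratio -0.77), and Tyk2 23.9 to 43.4 and 28.3 to 84.0 CPM (-0.68). Irf9 had 5.19 to 34.9 and 7.69 to 49.8 CPM (-0.69). Without +/- library 6, 4 of the 9 genes did not overlap (Ifnar1, Ifngr1, Jak1 and Tyk2), against 26.7% of all tested genes under the same omission. The means of Ifngr1 and Jak1 differed at least 2-fold, as did those of 35.7% of tested genes.

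The mean levels of Ifngr2 (log2 ratio 0.11), Il10rb (-0.19) and Stat2 (0.18) were closer between the sets. Ifngr2 had 43.5 to 80.7 CPM in Ebf1-high and 34.7 to 86.8 CPM in Ebf1-low libraries. Stat2 had 13.2 to 43.6 and 13.8 to 36.9 CPM. For both, the ranges of the sets overlapped widely. Over the 9 genes the median log2 ratio was -0.68, and 3 had the higher mean in Ebf1-high libraries. Over all tested genes the median was -0.07.

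The balance of Ifnar1 to Ifnar2 was read as a ratio of length-scaled levels, which does not depend on library scaling. This ratio was chosen after the values were seen. It was 1.09, 0.783, 0.827, 1.23 and 0.884 in the Ebf1-high libraries (+/- 3, 4 and 5, then -/- 3 and 5). It was 0.331, 0.349, 0.345, 0.365, 0.208 and 0.337 in the Ebf1-low libraries (+/- 1, 2 and 6, then -/- 1, 2 and 4). The lowest Ebf1-high ratio was 2.15 times the highest Ebf1-low ratio, and genotypes were mixed in both sets. That the ratio parts the sets follows from the ranges of Ifnar1 and Ifnar2 given above and is no separate result. The share of other gene pairs whose ratio parts the sets was not computed. The ratio is of transcripts over annotated exons and is not one of receptor subunits at the cell surface. The ratios Ifngr1 to Ifngr2, Jak1 to Tyk2 and Stat2 to Irf9 overlapped between the sets, at 3.61 to 12.1 against 5.82 to 33.5, 3.62 to 5.65 against 3.24 to 8.53, and 0.863 to 2.31 against 0.427 to 2.74.

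**Figure D2:**
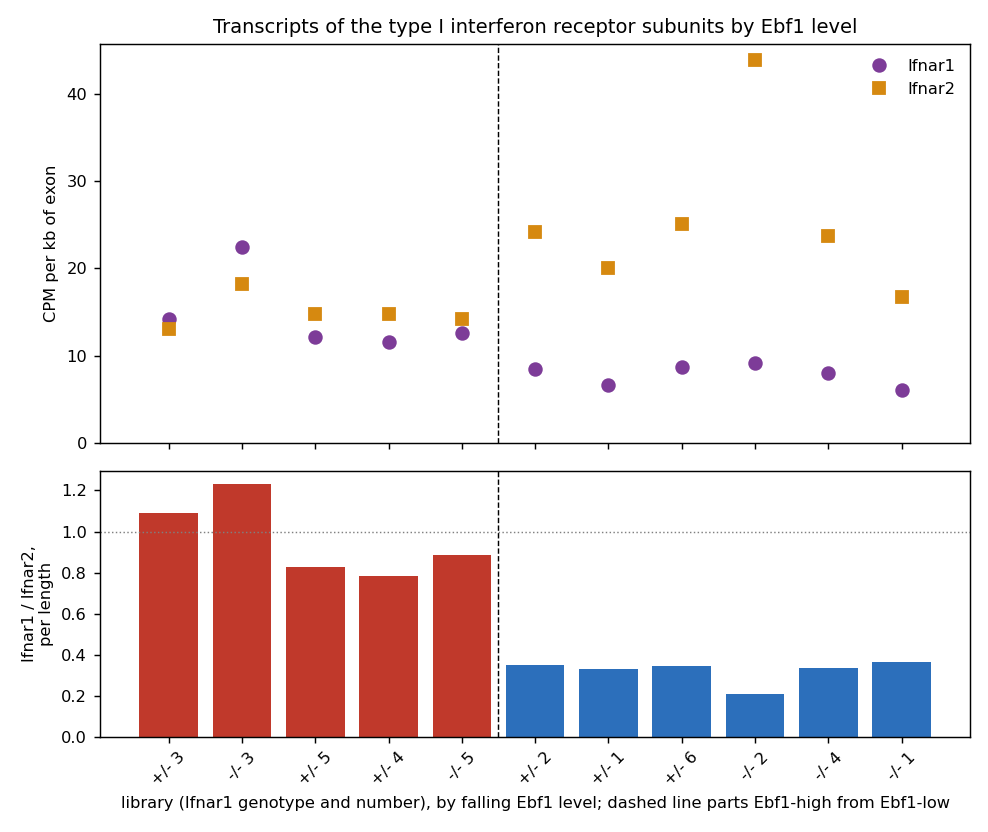
Upper panel, length-scaled levels of Ifnar1 and Ifnar2 (CPM per kb of exon) in the 11 libraries ordered by falling Ebf1. Lower panel, their ratio as bars from 0, which stand between 0.783 and 1.23 left of the dashed line (Ebf1-high) and between 0.208 and 0.365 right of it (Ebf1-low).

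Genotype was then compared among libraries of like Ebf1 level, in 1 edgeR fit with 4 means (3 +/- and 2 -/- libraries in the Ebf1-high set, and 3 of each in the Ebf1-low set). For Tyk2 the log2 fold change was 0.77 (SE 0.30, unadjusted p = 0.0306, edgeR adjusted p = 0.826) in the Ebf1-low set, where -/- libraries had 74.0, 61.6 and 84.0 CPM and +/- libraries 53.5, 46.8 and 28.3 CPM. All 3 -/- values lay above all 3 +/- values there, and with a library left out the unadjusted edgeR p ran from 0.0211 to 0.0931. In the Ebf1-high set it was 0.17 (SE 0.34), with 34.6 and 43.1 against 43.4, 23.9 and 36.5 CPM, and the difference between the sets did not pass (-0.61, SE 0.46, edgeR adjusted p = 0.9999).

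Ifnar1 had a log2 fold change of 0.47 (SE 0.29) in the Ebf1-high and -0.03 (SE 0.26) in the Ebf1-low set. In the Ebf1-high set the -/- libraries had 133 and 74.8 CPM and the +/- libraries 84.5, 68.5 and 72.3 CPM, so the larger value came from -/- library 3, and the log2 fold change there was 0.03 without it and 0.83 (unadjusted p = 0.0245, edgeR adjusted p = 1) without -/- library 5. Irf9 was lower in mean in both sets, by a log2 fold change of -0.82 (SE 0.77) and -0.61 (SE 0.67), and Stat2 in the Ebf1-high set (-0.64, SE 0.48) but not in the Ebf1-low set (0.10, SE 0.42). Without -/- library 3 the values of Irf9 and Stat2 in the Ebf1-high set were -0.07 and -0.14. Without -/- library 5 they were -2.33 (unadjusted p = 0.0377) and -1.35 (unadjusted p = 0.0505), each with an edgeR adjusted p of 1, so both rest on which -/- library is kept. In the Ebf1-low set the value of Irf9 was -0.17 without -/- library 2 and -1.07 without -/- library 4. The other 5 genes had values between -0.20 and 0.51 in the sets.

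No gene of the 9 passed in either set or for the difference between the sets. Among all tested genes 0 were called by the adjusted p in each of these 3 contrasts (0%). At an unadjusted p under 0.05 there were 195 genes in the Ebf1-high set (1.34%), 843 in the Ebf1-low set (5.81%) and 415 for the difference (2.86%), with Tyk2 in the Ebf1-low set the only such value among the 9.

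**Figure D3:**
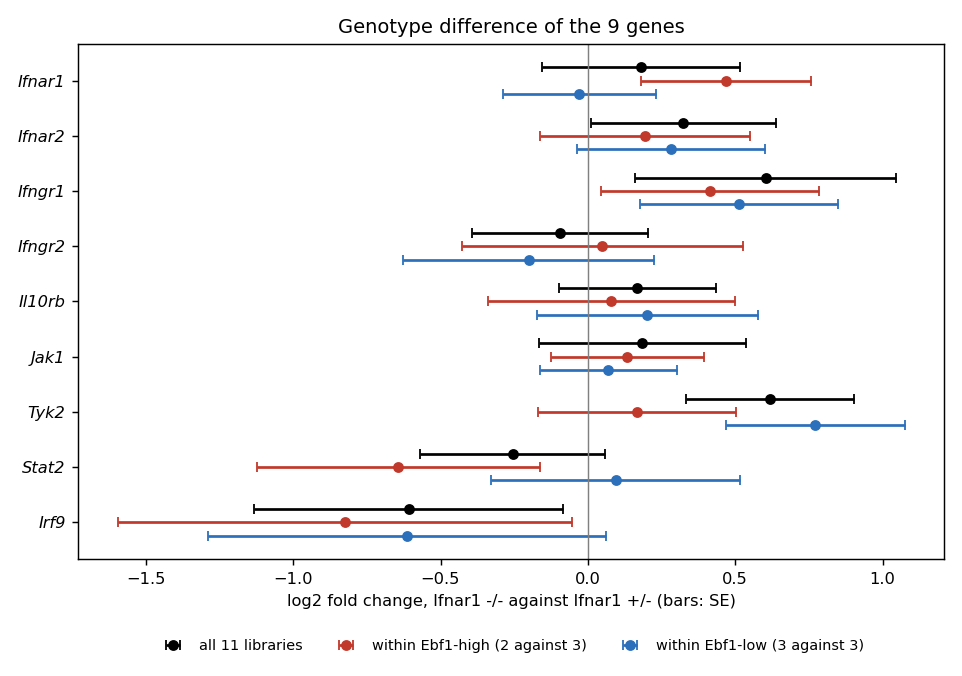
Log2 fold change of Ifnar1 -/- against Ifnar1 +/- (horizontal axis, points, with SE bars) for the 9 genes over all 11 libraries and within the Ebf1-high and Ebf1-low sets. Tyk2 stands highest in the Ebf1-low set (0.77), Irf9 lowest in the Ebf1-high set (-0.82), and no point passed the test.

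The 3 neighbours of Ifnar1 on chromosome 16 lie close enough to be inherited with its targeted allele, whose strain of origin the labels do not give. Their genotype log2 fold changes were 0.32 for Ifnar2, 0.17 for Il10rb and -0.10 for Ifngr2 (SE 0.31, 0.27 and 0.30). In the Ebf1-high set they were 0.19 (SE 0.36), 0.08 (SE 0.42) and 0.05 (SE 0.48). In the Ebf1-low set they were 0.28 (SE 0.32), 0.20 (SE 0.38) and -0.20 (SE 0.43).

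**Figure D4:**
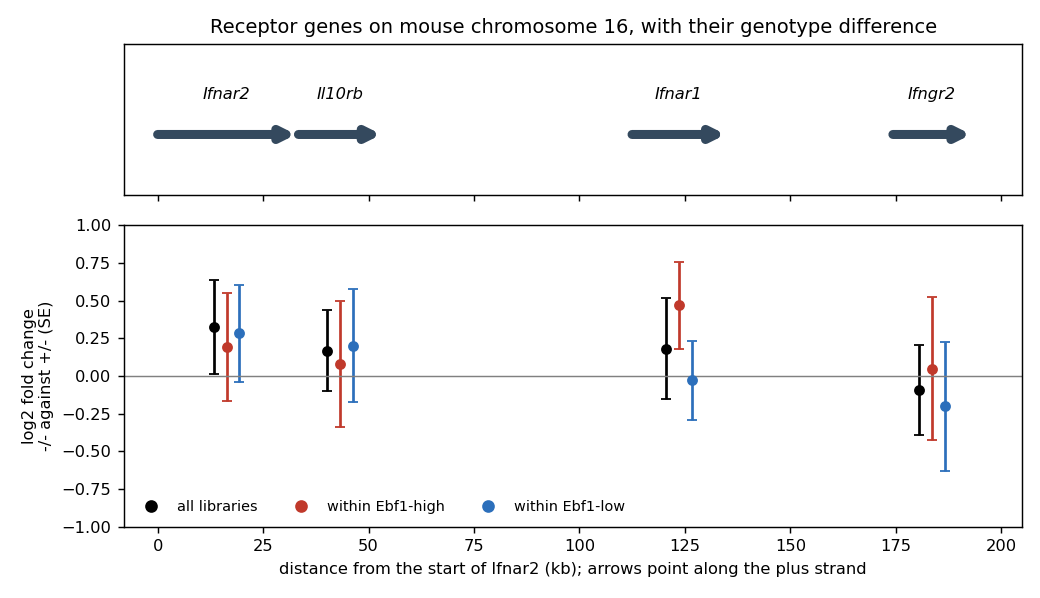
Upper panel, the 4 receptor genes on chromosome 16 drawn to scale by distance from the start of Ifnar2 in kb. Lower panel, their log2 fold change of Ifnar1 -/- against Ifnar1 +/- with SE bars, all between -0.20 and 0.47.

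The kinase genes Jak2 and Jak3 and the transcription factor genes Stat3, Stat4, Stat5a, Stat5b and Stat6 were read from the same fit. Of these 7, 0 passed in either direction, 6 had higher and 1 lower fitted values in -/- AML, and the median log2 fold change was 0.28. Stat6, which acts downstream of IL-4, had 153 ± 39.7 CPM (SD, n = 6) in +/- and 214 ± 115 CPM (SD, n = 5) in -/- AML. Stat5b and Stat5a, which act downstream of many cytokine receptors and of Flt3-ITD, had 31.4 ± 7.37 against 43.2 ± 24.1 and 65.7 ± 18.9 against 79.9 ± 37.5 CPM. For Stat6 and Stat5b the highest library was -/- library 2, with 407 and 83.5 CPM.

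By Ebf1 level, 2 of these 7 genes had sets that did not overlap, Jak2 and Stat3, named here after their values were seen, against 21.1% of all tested genes. Jak2, which encodes the partner kinase of JAK1 at the interferon gamma receptor, had 4.68 to 7.26 CPM in Ebf1-high and 18.3 to 31.01 CPM in Ebf1-low libraries. Stat3, which acts downstream of IL-10 and IL-6 family cytokines, had 74.1 to 110 and 188 to 316 CPM. Both were lower in Ebf1-high libraries.

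Negative regulators of the pathway showed no gene that passed between genotypes. Of 15 tested, 7 had higher and 8 lower fitted values, with a median of -0.09, and only Ptpn6 had an unadjusted p under 0.05. Ptpn6, the gene of the phosphatase SHP-1, had 311 ± 88.0 CPM in +/- and 610.4 ± 454 CPM in -/- AML, with 1416 CPM in -/- library 2. Ptprc (CD45) and Ptpn1, also phosphatases, had 182 ± 51.8 against 279 ± 210.5 and 174 ± 59.5 against 273 ± 246 CPM, and again that library was highest (654 and 673 CPM). Socs3, the gene of a feedback inhibitor of cytokine receptors, had 36.3 ± 19.2 and 18.7 ± 18.3 CPM, and its fitted values had opposite signs in the Ebf1 sets. In Ebf1-low libraries Socs3 had 3.12, 9.75 and 3.72 CPM in -/- and 31.8, 42.7 and 67.8 CPM in +/- AML (log2 fold change -3.10, SE 0.63, unadjusted p = 0.000758, edgeR adjusted p = 0.826). In Ebf1-high libraries Socs3 had 41.3 and 35.5 CPM in -/- and 8.68, 33.8 and 32.7 CPM in +/- AML (0.61, SE 0.64). The difference between the sets was 3.72 (SE 0.88, unadjusted p = 0.00209, edgeR adjusted p = 0.9999). None of these passed over all genes, and they were looked at after the values were seen. By Ebf1 level 2 of the 15 did not overlap: Cish, a STAT5-induced inhibitor gene, with 84.6 to 176 against 272 to 747 CPM, and Ptpn2, with 59.7 to 81.8 against 89.7 to 134 CPM, both lower in Ebf1-high libraries. Over all tested genes that share was 21.1%.

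Ligand transcripts were scarce. Of 20 interferon and IL-10 family genes, 14 had 0 counts in all 11 libraries (Ifnb1, Ifna1, Ifna2, Ifna4, Ifna5, Ifna6, Ifna9, Ifna11, Ifna12, Ifna14, Ifne, Ifnl2, Ifnl3 and Il22), which allows up to 0.0724 to 0.155 CPM per library (3 counts). The others outside the test (Ifna13, Ifnab, Ifnk, Ifnz and Ifng) had at most 18 counts in a library. Only Il10 was abundant enough to be tested, with 0.0483 to 16.9 CPM in +/- and up to 3.43 CPM in -/- libraries, and it did not pass (log2 fold change -2.55, SE 1.64). It was at most 0.364 CPM in Ebf1-high libraries.

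Among other receptor chains 4 of 6 could be tested and 0 passed. Il10ra, the gene of the ligand-binding chain that pairs with IL10RB for IL-10, had 103 ± 65.8 CPM in +/- and 122 ± 81.1 CPM in -/- AML, and 41.01 to 96.97 CPM in Ebf1-high against 52.3 to 242 CPM in Ebf1-low libraries. Ifnlr1, the gene of the type III interferon receptor chain that pairs with IL10RB, had 2.83 to 6.88 CPM in Ebf1-high and 0 to 0.635 CPM in Ebf1-low libraries, without overlap. It was 1 of the 4 tested chains, near the 21.1% of all tested genes without overlap. Il20rb and Il22ra2 were low, at up to 6.35 and 1.08 CPM. Il22ra1 had 0 counts in every library.

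Interferon-stimulated genes are induced downstream of the receptor, and what else set their level in these libraries was not tested. Of 20 listed, 17 were tested, and Mx1, Mx2 and Ifi44 were too low (at most 0.134, 1.58 and 0.0737 CPM). Over all 11 libraries all 17 had lower fitted values in -/- AML, against 7502 of all 14521 tested genes. Some lay within their SE, among them Bst2 (-0.28, SE 0.32) and Ifih1 (-0.21, SE 0.63). The 17 were not shown to vary independently, so they are not 17 separate results. Of them 0 passed over all genes and 8 had an unadjusted p under 0.05 (edgeR), against 1.99% of all tested genes. This list was chosen with earlier results of these data known, so setting it against all tested genes is no test. The median log2 fold change was -1.49. Within the Ebf1 sets the signs were not all alike. Isg15 was above 0 in the Ebf1-high set (0.13, SE 0.65). Dhx58 (0.63, SE 0.74), Parp14 (0.22, SE 0.50) and Ifit2 (0.09, SE 1.055) were above 0 in the Ebf1-low set. All other values of the 17 in the sets were below 0. The RNA-binding protein gene Ifit1 had 3.97 ± 3.12 CPM (SD, n = 6) against 0.436 ± 0.298 CPM (SD, n = 5), and Rtp4, Oasl1 and Oas2 had 9.35 ± 8.81 against 1.06 ± 1.47, 5.87 ± 5.67 against 0.479 ± 0.790 and 1.34 ± 1.01 against 0.187 ± 0.294 CPM. By Ebf1 level, Ifit2 was the 1 gene of the 17 without overlap, against 21.1% of all tested genes. It had 8.59 to 27.3 CPM in Ebf1-high and 0.103 to 7.01 CPM in Ebf1-low libraries. Reads of Ifit and Oas family genes can be split between similar copies. The feedback inhibitor Usp18, which acts at IFNAR2 and is itself interferon-induced, had 12.2, 14.4, 16.4, 5.09, 3.21 and 6.92 CPM in +/- and 2.44, 0.310, 0.430, 10.6 and 9.85 CPM in -/- libraries. -/- libraries 2 and 3 were lowest for Usp18 and also for Irf9 (7.69 and 5.19 CPM).

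Genes with a pattern most like that of Ifnar1, Stat2 and Irf9 were found by Pearson's correlation of log2 CPM over the 11 libraries, among 8089 tested genes with a mean of 10 CPM or more. For Irf9 they were Jcad (r = 0.98, Spearman's rho = 0.94), Pon3 (0.93 and 0.76) and Cited2 (0.93 and 0.95), and within the 6 Ebf1-low libraries r was 0.98, 0.97 and 0.94. Without the 2 libraries in which Irf9 lay farthest from its median (-/- 2 and 3), r was 0.88, 0.57 and 0.90. For Ifnar1 they were Gins4 (r = 0.95), Rpl7 (0.94) and Wbp11 (0.93), with 0.62, 0.74 and 0.73 in the Ebf1-low libraries and 0.88, 0.91 and 0.90 without +/- 3 and -/- 3. Rpl7 has many processed copies in the genome, so its counts are uncertain. For Stat2 they were Specc1l (0.91), Klhl20 (0.88) and Tmem135 (0.86), with 0.92, 0.82 and 0.98 in the Ebf1-low libraries and 0.83, 0.65 and 0.68 without +/- 6 and -/- 3. These values describe the 11 libraries, which differ jointly in B-lineage content and in depth. The genes were picked for the highest r in these libraries. Spearman's rho and r in fewer libraries use the same values and are no separate support. The 6 Ebf1-low libraries still include -/- library 2. How high r would be by the picking alone was not computed.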

How the data were processed

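Total RNA was prepared with a Qiagen RNeasy micro kit and made into libraries with a Clontech SMART kit, per the labels' protocols. The authors deposited estimated counts per gene, unscaled, of which 10.0% to 11.3% per library carried decimals. Per the submitters' processing notes, bcl2fastq and DRAGEN were used (no version). The aligner, genome build and annotation were not given in the sources used here.

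Of 55774 rows, 287 identical copies were dropped. Symbols matched 55141 of 55487 identifiers. Estimated counts were rounded before the test, which was run with edgeR 4.0.16 (R 4.3.3; filterByExpr by genotype, TMM, glmQLFit with robust=TRUE, two-sided, Benjamini-Hochberg over 14521 genes, threshold 0.05), and SE is the absolute log2 fold change over the square root of F. Ebf1 sets were split at the largest gap in log2(CPM + 1) of Ebf1. Lengths are the union of GENCODE M21 exons. The steps were tested on simulated data. How large a change the steps could find at the scatter of these libraries (biological coefficient of variation 0.782) was not tested. No library was a copy of another (Pearson's r at most 0.991).

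The genes and lists were chosen with earlier results of these data known. Besides the 9 genes, the text names up to 4 genes per list with the smallest p, genes whose Ebf1 sets did not overlap, 3 genes most alike in pattern and the 2 most abundant markers per cell type. Some other genes, among them Usp18, are named outside this rule. Alternatives were DESeq2 1.42.0, limma 3.58.1 (voom), other size factors, no filter, a filter of 5 CPM in 5 libraries, robust=FALSE, a threshold of 0.1, Ebf1 set as a term, the replicate number as a block and leaving out each library. Leaving out +/- library 6 together with -/- library 2 was chosen after seeing the data. Results that need an item withheld from this work are not reported here.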

Additional observations from a re-analysis of the deposited data

Results flagged for a closer look

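No value of the 9 genes stood apart from its genotype by Dixon's 95% criterion. Among the other pathway genes and the subunit ratios, 7 of 44 sets of values did. The criterion flags about 1 in 20 only for independent, normally distributed values. These sets share the same libraries, and many were named for a small p. The count can therefore not be set against that rate. In Ifnar1 -/- library 2, Ptprc had 654 CPM with the next library at 211 CPM, Ptpn6 had 1416 CPM with the next at 494 CPM, and Il20rb had 6.35 CPM with the next at 2.58 CPM. That library also had the highest neutrophil and eosinophil marker sum, 75575 CPM, whose part in these values was not tested. In Ifnar1 -/- library 5, Rtp4 had 3.68 CPM with the next at 0.618 CPM, Oasl1 had 1.89 CPM with the next at 0.206 CPM, and Oas2 had 0.704 CPM with the next at 0.143 CPM. In Ifnar1 +/- library 3, Oas2 had 3.24 CPM with the next at 1.38 CPM.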

How the results depend on the processing

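In all alternatives run, 0 of the 9 genes passed the genotype test, and 0 genes in all passed it except in DESeq2, which called 3 (Fyttd1, Nrp2 and Prf1). Unadjusted p of Tyk2 was 0.041 in DESeq2, 0.0166 in limma voom and 0.171 in edgeR with the replicate block. With a library left out it ran from 0.0155 to 0.146 (edgeR). Ifngr1 had a log2 fold change of 1.08 in limma voom (unadjusted p = 0.0211), and 0.42 to 0.95 in edgeR with a library left out. No gene passed within the Ebf1 sets, where leaving out a library can leave 1 Ifnar1 -/- library that is assumed to vary like the rest. Whether the replicate numbers pair the libraries is not known. Deviations from the genotype means correlated by 0.41, 0.15, 0.58, -0.55 and 0.52 for numbers 1 to 5. Only number 4 joined libraries of unlike Ebf1 set. Libraries of unlike number were not compared this way, so the correlations cannot decide whether the numbers mark pairs. With the replicate block 0 genes passed. Ifnar1 and Jak1 did not overlap by Ebf1 level under any scaling, filter or left-out library. The count of such genes among the 9 was 2 to 4 when a library was left out, and 4 without Ifnar1 +/- library 6 and Ifnar1 -/- library 2.

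The sign of the Ifnar1 log2 fold change turned in limma voom (-0.25), and in the Ebf1-low set with a filter of 5 CPM in 5 libraries (0.0048). With a library left out, signs of the genotype log2 fold change turned for Ifnar1 (-0.20 to 0.34), Ifnar2 (-0.029 to 0.45), Ifngr2 (-0.30 to 0.035) and Jak1 (-0.021 to 0.37). In the Ebf1-high set they turned for Ifngr1 (-0.077 to 0.81), Ifngr2 (-0.43 to 0.43), Il10rb (-0.16 to 0.27) and Tyk2 (-0.040 to 0.36). In the Ebf1-low set they turned for Ifnar1 (-0.17 to 0.11), Ifnar2 (-0.20 to 0.54), Ifngr2 (-0.79 to 0.12), Il10rb (-0.079 to 0.71), Jak1 (-0.10 to 0.25) and Stat2 (-0.19 to 0.50). For the difference between the sets they turned for Ifnar2 (-0.35 to 0.41), Ifngr1 (-0.59 to 0.30), Ifngr2 (-0.21 to 0.85), Il10rb (-0.63 to 0.16), Irf9 (-1.72 to 0.54) and Jak1 (-0.11 to 0.24). The cause was not tested. The share of all genes without overlap was 12.0% with no filter and 35.9% without both libraries, and 20.9% to 26.9% when a library was left out.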
